A study of Mus musculus with 22 samples.

Results

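Trimethylation of histone H3 at lysine 9 (H3K9me3) was mapped by ChIP-seq in mouse embryonic stem (mES) cells after knockdown (KD) of TERRA, the telomeric repeat-containing RNA. The data described here are the 4 H3K9me3 peak lists among the 16 peak lists of the series, chosen by antibody and knockdown in the sample titles. The other 12 lists hold ATRX, G4 and ATAC peaks, 4 of each. Both groups were embryonic stem cells of CAST/Ei x 129/Sv/Jae background, one XX line cultured with serum and LIF, collected 12 h after delivery of LNA gapmers, which are antisense oligonucleotides that direct RNase H to an RNA. The TERRA KD cells received gapmers against TERRA and the scramble KD cells received scramble gapmers, with 2 libraries per condition. Peak lists hold no RNA measurement, so the depth of the knockdown and the stem cell state could not be checked from them. The comparison asks where H3K9me3 was called with and without TERRA.

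H3K9me3 is the histone mark of constitutive heterochromatin, found over pericentromeric satellites, telomeres, transposable elements and clusters of zinc finger genes. It is written by enzymes such as SETDB1 and SUV39H1 and read by HP1 proteins. ATRX, a chromatin remodeler that TERRA can bind, works with DAXX to deposit histone H3.3 at telomeres and silenced repeats, where H3K9me3 is maintained.

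The libraries differed more by replicate number than by condition. After removal of duplicates the ChIP libraries held 12090614 and 13898785 tags in replicate 1 (scramble KD, then TERRA KD) and 5942692 and 5435286 in replicate 2. Their inputs held 3366921 and 3374834 tags in replicate 1 and 19735093 and 28622103 in replicate 2, so the ratio of ChIP to input tags was 3.59 and 4.12 against 0.301 and 0.190. Replicate 1 gave fewer and wider peaks than replicate 2 in both conditions, and their part in the differences below was not tested. With 2 libraries per condition, an exact two-sided permutation test over the 4 libraries cannot give a p below 0.333, so the value within each replicate number is given beside every comparison.

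H3K9me3 covered more of the genome in the TERRA KD library of both replicates, through wider rather than more numerous peaks. The lists held 26414 (replicate 1) and 76213 peaks (replicate 2) under scramble KD against 25490 and 74925 under TERRA KD. The peaks covered 85.4 and 44.5 Mb under scramble KD against 107.2 and 49.3 Mb under TERRA KD, which is 3.22% and 1.68% of the sequenced genome against 4.04% and 1.86%. The TERRA KD list was the larger one within each replicate number, but the groups overlapped, since both replicate 1 lists covered more than both replicate 2 lists. On the log2 scale the covered share was larger by 0.33 in the first replicate and by 0.15 in the second (mean 0.24, exact permutation p 0.667). The distance between replicates of one condition was larger, 0.94 under scramble KD against 1.12 under TERRA KD on the same scale. Peak number had log2 ratios of −0.05 and −0.02 (mean −0.04, exact permutation p 0.667).

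The median peak was 2404 and 491 bp wide under scramble KD against 3119.5 and 515 bp under TERRA KD, log2 ratios of 0.38 and 0.07 (mean 0.22, exact permutation p 0.667). At the 95th percentile of width the same log2 ratio was 0.34 in replicate 1 and 0.34 in replicate 2, from 8528 to 10760 bp and from 1105 to 1394 bp. Peaks of 10 kb or more, the scale of heterochromatin domains, were called almost only in replicate 1. There they numbered 789 under scramble KD against 1578 under TERRA KD and held 11.8% and 20.2% of covered bases. In replicate 2 they numbered 4 and 2 and held 0.113% and 0.0462%, so the difference in share was 8.44 and −0.07 percentage points, opposite in direction (exact permutation p 1). When peaks less than 5 kb apart were joined, domains of 20 kb or more numbered 285 and 212 under scramble KD against 474 and 282 under TERRA KD. These joined domains were more numerous in TERRA KD in both replicates, log2 ratios of 0.73 and 0.41 (exact permutation p 0.667). The share of ChIP tags inside peaks was 23.7% and 10.51% under scramble KD against 26.7% and 13.1% under TERRA KD.

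**Figure D1:**
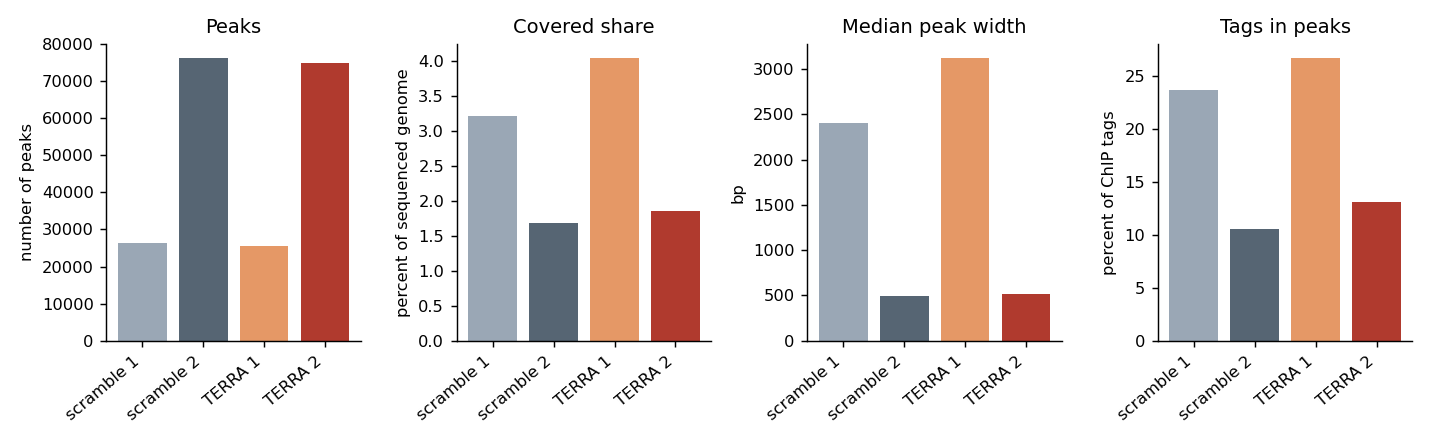
Number of peaks, covered share of the sequenced genome (%), median peak width (bp) and share of ChIP tags in peaks (%) in each H3K9me3 library, one bar per library, scramble KD in light and dark grey and TERRA KD in orange and red. Replicate 1 and replicate 2 stand apart in all 4 panels, and within a replicate number the TERRA KD bar is higher for covered share, width and tags, and lower for peak number.

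Every chromosome had a larger covered share in TERRA KD in both replicates, 21 of 21. Among the autosomes the log2 ratio ran from 0.22 to 0.39 in replicate 1, with a median of 0.30, and from 0.02 to 0.24 in replicate 2, with a median of 0.16. Chromosome X stood above all autosomes in replicate 1, at 0.53, and among them in replicate 2, at 0.15. Its covered share was 3.95% and 2.08% under scramble KD against 5.71% and 2.304% under TERRA KD. Relative to the autosomes, X coverage was 1.21 and 1.22 times theirs under scramble KD against 1.41 and 1.22 times under TERRA KD (log2 ratios 0.22 and 0.00, exact permutation p 0.333, the smallest possible). The excess on X was thus large in one TERRA KD library only. Chromosome Y, which an XX line lacks apart from the region it shares with X, had covered shares of 0.299% and 0.194% under scramble KD against 0.425% and 0.243% under TERRA KD.

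Chromosomes 6 and 8 had the largest covered shares of the autosomes in all 4 libraries. Chromosome 6 was covered at 4.61% and 3.08% under scramble KD against 5.64% and 3.13% under TERRA KD. Against the other autosomes, 6 and 8 left out, this was 1.47 and 1.99 times under scramble KD against 1.45 and 1.80 times under TERRA KD. Chromosome 8 lay at 1.29 and 1.78 times under scramble KD against 1.21 and 1.69 times under TERRA KD. For both chromosomes the relative share was slightly lower in TERRA KD in both replicates (log2 ratios of −0.02 and −0.15 for 6, −0.09 and −0.07 for 8, exact permutation p 0.667 each), and the replicate 2 libraries stood above the replicate 1 libraries.

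**Figure D2:**
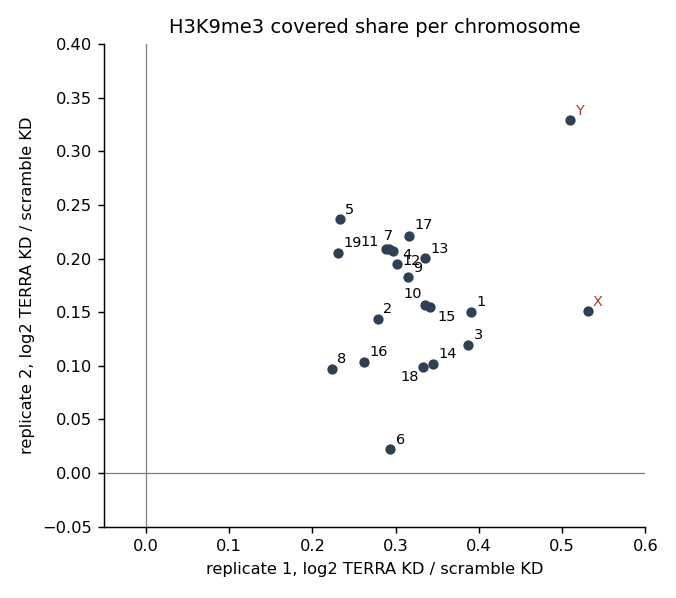
Difference in log2 covered share, TERRA KD minus scramble KD, for each chromosome, replicate 1 on the x axis and replicate 2 on the y axis, one point per chromosome. All 21 points lie above 0 on both axes, with X at 0.53 in replicate 1 and 0.15 in replicate 2 and chromosome 6 close to 0 in replicate 2.

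Both ends of the chromosomes were rich in H3K9me3. Within 100 kb of the last sequenced base of each chromosome the covered share was 20.8% and 10.6% under scramble KD against 28.7% and 12.3% under TERRA KD, 6.47, 6.29, 7.09 and 6.63 times the genome share in scramble KD 1, scramble KD 2, TERRA KD 1 and TERRA KD 2. Within 1 Mb it was 6.07% and 3.18% under scramble KD against 8.23% and 3.69% under TERRA KD. The log2 ratio over this distal 1 Mb was 0.44 and 0.21 (mean 0.33, exact permutation p 0.667). Divided by the genome average of the same list, it was 0.11 and 0.07 (mean 0.09, exact permutation p 0.333, the smallest possible), beside the mean of 0.24 for the whole genome. On chromosomes 1 to 19 alone the divided value was 0.10 and 0.05 (exact permutation p 0.667). Over the distal 10 kb the divided value was 0.10 and 0.11. Over the distal 5 Mb it was −0.07 and 0.05, with opposite signs.

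By chromosome, the distal 1 Mb was more covered in TERRA KD in both replicates on 18 of 21 chromosomes and less covered in both on 0. Over the distal 100 kb it was more covered in both on 13 of 21, and chromosomes 3 and 7 had 0% to 1.17% covered there. On chromosome 11 the distal 100 kb went from 33.3% in scramble KD to 62.2% in TERRA KD in replicate 1 and from 13.5% to 14.1% in replicate 2. On chromosome 1 the values were 35.2% and 52.4% in replicate 1 and 16.9% and 23.9% in replicate 2. Chromosome 16 had one of the most covered ends, with 54.9% and 54.8% in replicate 1 and 28.3% and 27.5% in replicate 2, and is the 1 chromosome of 21 whose last 100 kb was lower in TERRA KD in both. These chromosomes were picked after their values were seen.

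On the centromere side, where the assembly begins after an unsequenced gap, the first 2 Mb was covered at 8.12% and 3.88% under scramble KD against 10.4% and 4.595% under TERRA KD. The log2 ratio was 0.35 and 0.24 (mean 0.30, exact permutation p 0.667). Divided by the genome average it was 0.03 and 0.10. The divided value was also positive in both replicates over the first 10 kb (0.24 and 0.25) and the first 5 Mb (0.03 and 0.05). Its signs were opposite over the first 2 Mb without X (−0.01 and 0.09). They were also opposite over the first 1 Mb (−0.04 and 0.10) and over the first 100 kb (−0.05 and 0.27). The satellite arrays themselves are not in the assembly, so these values describe only the flanking sequence.

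**Figure D3:**
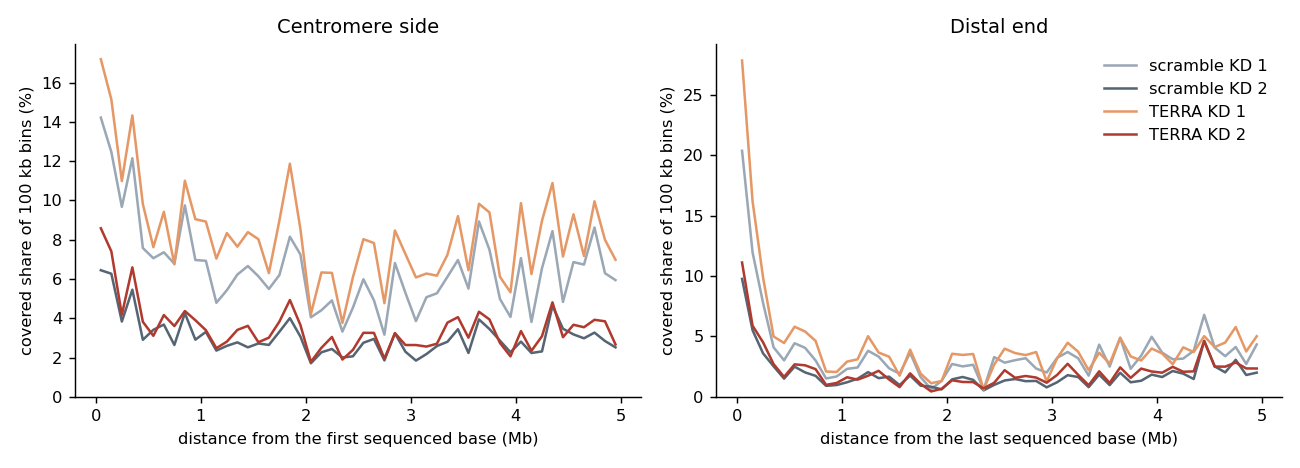
H3K9me3 covered share (%) in bins of 100 kb over the first 5 Mb from the centromere side (left) and the last 5 Mb before the distal end (right), summed over chromosomes 1 to 19, one line per library. Coverage is highest in the bins next to the ends, with 20.4%, 9.76%, 27.8% and 11.1% in the outermost distal bin of scramble KD 1, scramble KD 2, TERRA KD 1 and TERRA KD 2, and the replicate 1 lines run mostly above the replicate 2 lines. The y axes of the panels differ in scale.

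Overlapping peaks of the 4 lists were merged into 90282 regions. Of these, 11214 (12.4%) held a peak in all 4 lists, and 62249 (68.9%) in 1 list only. Regions in both TERRA KD and neither scramble KD list numbered 1616, 1.79% of all regions, and regions in both scramble KD and neither TERRA KD list 897, 0.994%. For comparison, regions in exactly 2 lists that matched neither the condition nor the replicate number counted 1373 (scramble KD 1 and TERRA KD 2) and 1397 (scramble KD 2 and TERRA KD 1). Those shared by the libraries of one replicate number counted 1676 for replicate 1 and 2381 for replicate 2. The TERRA KD count thus lay above both mixed pairs and below both replicate pairs, and the scramble KD count lay below all of them.

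The regions of one condition were narrower and lower in score than the shared ones, as were the other regions in exactly 2 lists. A region joins overlapping peaks and keeps the best score per library, so regions in more lists tend to be wider by construction. The median width was 2239.5 bp for TERRA KD and 1841 bp for scramble KD, against 5445 bp for regions in all 4 lists. It was 2000 bp for the mixed pairs, 2585.5 bp for the replicate 1 pair and 761 bp for the replicate 2 pair. The median of the best listed score, the negative log10 of the p of a peak on a scale where a p of 0.01 gives a score of 20, was 27.3 and 29.7 in the TERRA KD libraries for TERRA KD regions, against 90.9 and 50.045 in the same libraries for shared regions. In the mixed pairs this median was 27.7 in TERRA KD 1 and 30.2 in TERRA KD 2. Repeat-masked sequence made up 69.8% of TERRA KD regions, 56.0% of scramble KD regions and 66.3% of shared regions, with 36.4% in the genome. A start site of a protein-coding gene lay within 1 kb for 0.990% of TERRA KD regions and 1.45% of scramble KD regions.

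On chromosome X, TERRA KD regions numbered 193 and scramble KD regions 45, a ratio of 4.29. On the autosomes the same ratio ran from 1.15 on chromosome 19 to 2.40 on chromosome 1. X held 11.9% of TERRA KD regions, 5.02% of scramble KD regions, 7.57% of shared regions and 7.46% of all regions. It held 9.49% of the mixed pairs, 8.77% of the replicate 1 pair and 10.54% of the replicate 2 pair. The TERRA KD share was thus the highest of these pairs, with the replicate 2 pair next. The larger covered share of X in TERRA KD replicate 1 moves with the count of TERRA KD regions there, and its part was not tested.

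Over the 11214 shared regions, TERRA KD coverage was more often larger. The median covered length of a shared region was 4212 and 1314.5 bp under scramble KD against 5179 and 1645 bp under TERRA KD. The median log2 ratio was 0.22 in replicate 1 and 0.30 in replicate 2, and 5727 regions (51.1%) were more covered in TERRA KD in both replicates while 784 (6.99%) were less covered in both. The ratios of the replicates did not run together over regions, with a Pearson r of −0.07 and a Spearman rho of −0.08 (a description over 11214 regions that share libraries). Tags in these regions, scaled to library depth, had median log2 ratios of 0.11 and 0.46. Depth-scaled tags per kb covered, the density of the mark within its called length, had ratios of −0.12 and 0.15, opposite in sign.

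The shared regions are led here by covered bases. The region with the most covered bases spanned Gm32719 on chromosome 12 (20200295 to 20273636), with 64059 and 43207 bp covered under scramble KD against 72947 and 56371 bp under TERRA KD. The region over 9630028I04Rik, a lncRNA gene on chromosome 17, was covered over 21592 and 32037 bp under scramble KD against 56264 and 40919 bp under TERRA KD. Both were more covered in TERRA KD within each replicate number. A region over Cyp3a41a, a cytochrome P450 gene, was covered over 33782 and 16594 bp under scramble KD against 39887 and 19257 bp under TERRA KD. The region over C1s2, a complement component gene, had 33006 and 16033 bp under scramble KD against 33344 and 18949 bp under TERRA KD. The remaining regions among the 10 most covered lay over Gm21711, Gm13034, Gm23793, Gm14393 and Tdpoz3 and near Gm18244. Of these 10, Gm13034 (25194 and 22752 bp in scramble KD, 25047 and 19330 bp in TERRA KD) was less covered in TERRA KD in both replicates.

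The 10 leading regions of TERRA KD only, by the worse of their ranks in the 2 lists, overlapped Itpr2, Xkrx, Akap9, Trim67 and the lncRNA gene Gm40644, lay near Gm41418, Gm7589 and Gm8182, or had no gene within 50 kb. The first was chr3:156177852-156182542, 97.3% repeat-masked, with 4691 bp covered in TERRA KD 1 (205 tags, score 187) and 2508 bp in TERRA KD 2 (44 tags, score 156). The region in Itpr2, which encodes an inositol trisphosphate receptor, was covered over 4888 and 2351 bp with 187 and 45 tags. The region in Akap9, which encodes a centrosomal and Golgi scaffold protein, held 461 and 137 tags, the most tags of the 10. No peak was listed at any of these regions in scramble KD, which sets no upper bound on tags there, since the lists hold called peaks only.

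The region in Xkrx on chromosome X (134149524 to 134151001) was covered over 1478 and 384 bp, with 107 and 21 tags. It held a run of 9 TTAGGG copies (134150064 to 134150117) in an exon of the gene. ATRX peaks overlapped this run in all 4 ATRX lists.

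Of the leading regions of scramble KD only, the first by rank lay in Reln, which encodes the extracellular protein reelin, with 2870 and 1407 bp covered, 75 and 18 tags and scores of 68.6 and 47.1. Others lay in Galntl6, Jazf1 and in the pseudogene Gm9536 and the lncRNA genes C920009B18Rik and Gm35368, near Gpr37, AB124611 and Gm2324, or away from genes at chr8:15754252-15755979. Regions that passed a score of 50 in both lists of their condition numbered 20 for TERRA KD and 2 for scramble KD. Over all peaks, those with a score of at least 50 numbered 10651 and 6840 under scramble KD against 10993 and 12458 under TERRA KD, so replicate 2 held more such peaks in TERRA KD.

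**Figure D4:**
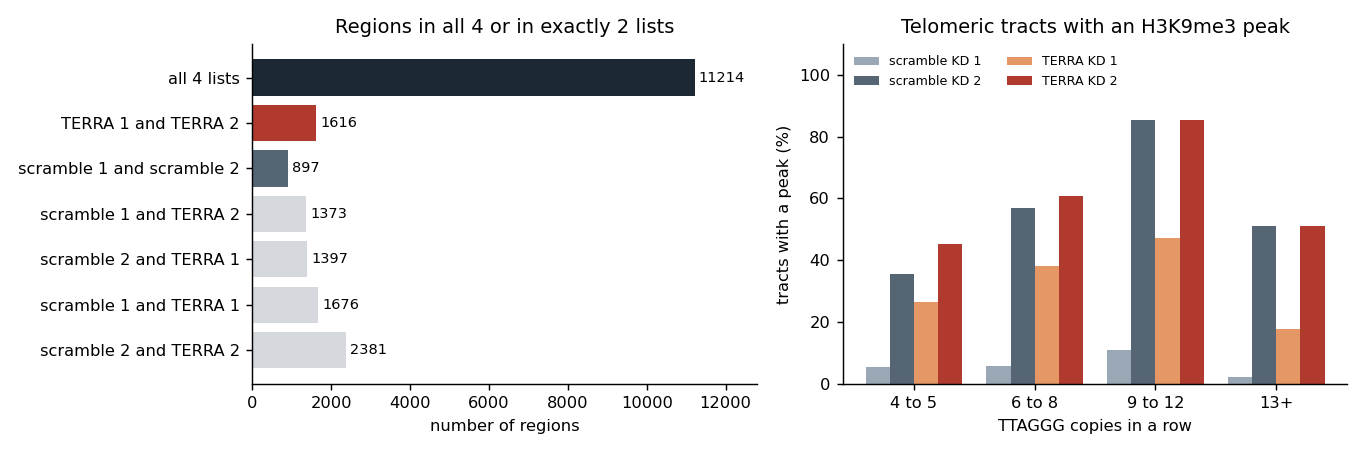
Left, number of merged regions with a peak in all 4 lists or in exactly 2 lists (bars, one per combination); the pairs of one condition, at 1616 and 897, stand beside mixed pairs at 1373 and 1397. Right, share (%) of telomeric tracts with an H3K9me3 peak by number of TTAGGG copies in a row, one bar per library; scramble KD 1 is the lowest bar at every length.

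Covered bases in windows of 1 Mb were compared across the genome with limma on log2 of covered bp plus 1000. Of 2135 windows, 0 passed an adjusted p of 0.05 (0%), and 0 had an unadjusted p under 0.05. With a block for the replicate number, 0 passed and 83 had an unadjusted p under 0.05, of which 81 were higher in TERRA KD. When the windows were scaled to the total of each list, 34 had an unadjusted p under 0.05 with the block, of which 16 were higher in TERRA KD. Coverage was higher in TERRA KD in both replicates in 1105 windows (51.8%) and lower in both in 78 (3.65%). The window ratios of the replicates ran against each other, with a Pearson r of −0.27 and a Spearman rho of −0.28 (a description over 2135 windows that share libraries).

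The window with the lowest p toward TERRA KD, at 15 to 16 Mb of chromosome 19 with Psat1 and Cep78, was covered over 2.59 and 10.7 kb under scramble KD against 22.1 and 13.9 kb under TERRA KD (log2 ratio 1.52, SE 0.776, limma adjusted p 1.00). The others lay at 63 to 64 Mb of chromosome 14, which holds Gata4 and beta-defensin genes, at 72 to 73 Mb of chromosome 4, 55 to 56 Mb of chromosome 3 and 43 to 44 Mb of chromosome 2, with log2 ratios from 1.10 to 1.21. Windows entered with a mean of at least 10000 covered bp over the 4 libraries, and 4 of these 5 did so through TERRA KD alone, since their scramble KD means were 6.05 to 8.04 kb, against 14.3 kb at chromosome 14. Toward scramble KD the first was at 46 to 47 Mb of chromosome 17, which holds Vegfa, with 29.2 and 14.9 kb under scramble KD against 12.0 and 10.4 kb under TERRA KD (log2 ratio −0.85, SE 0.776). The next was at 71 to 72 Mb of chromosome 17 and holds Smchd1, which encodes a silencing factor of the inactive X, with 19.1 and 9.49 kb under scramble KD against 11.6 and 6.09 kb under TERRA KD. The remaining 3 lay at 97 to 98 Mb of chromosome 14 (Dach1), 134 to 135 Mb of chromosome 7 and 31 to 32 Mb of chromosome 8.

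Gene bodies had a smaller covered share than the genome, and most genes had no listed peak. Of 49595 RefSeq genes, 36665 (73.9%) had no peak in any list and 3391 (6.84%) had one in all 4. Of protein-coding genes, 9.91% had one in all 4. The 3391 genes had a median length of 62463 bp, and gene length was not adjusted for. A peak in both TERRA KD and neither scramble KD list was found over 174 genes, 0.351%, and the opposite pattern over 172 genes, 0.347%. The nearly equal counts stand beside 1616 against 897 regions. Within 1 kb of a start site, 102 genes (0.206%) had a peak in both TERRA KD lists only and 41 (0.0827%) in both scramble KD lists only. Pseudogenes were the most covered of the broad gene types, at 7.33% and 3.69% under scramble KD against 8.81% and 4.46% under TERRA KD, and protein-coding genes the least, at 1.78% and 1.01% under scramble KD against 2.13% and 1.10% under TERRA KD. Of covered bases, 68.7% and 67.05% under scramble KD against 70.2% and 67.1% under TERRA KD were intergenic, with 52.2% of the genome. Promoters, taken as 1 kb on either side of a start site, held 1.28% and 0.925% of covered bases under scramble KD against 1.04% and 1.06% under TERRA KD, with 2.40% of the genome.

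Of 20 gene lists, 10 had a larger covered share in TERRA KD in both replicates, 0 a smaller one in both, and 8 had opposite directions. In replicate 1 the share was larger for 16 lists and in replicate 2 for 13. Over all genes together it was 2.11% and 1.16% under scramble KD against 2.52% and 1.28% under TERRA KD, log2 ratios of 0.26 and 0.15. The lists are described below beside this background, and the exact permutation test used for them cannot give a p below 0.333.

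The zinc finger Zfp genes, whose 3′ exons are known H3K9me3 targets, stood at 9.12% and 4.29% under scramble KD against 10.1% and 4.74% under TERRA KD. Their log2 ratio lay below that of all genes in replicate 1 (0.15 against 0.26) and was nearly equal to it in replicate 2 (0.144 against 0.145). A peak in all 4 lists was found over 83 of 367 members, or 22.6%, with 9.91% of protein-coding genes. Zfp640 was covered over 93.9% and 54.3% of its length under scramble KD against 100% and 77.7% under TERRA KD. Zfp617 had peaks in both TERRA KD lists only (16.4% and 4.29% of its length) and Zfp663 in both scramble KD lists only (11.4% and 2.67%).

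Clustered receptor and adhesion genes were more covered in TERRA KD in replicate 1 and less covered in replicate 2. Olfactory receptors were at 1.19% and 1.13% under scramble KD against 2.63% and 1.01% under TERRA KD. Vomeronasal receptors were at 3.94% and 2.89% under scramble KD against 6.46% and 2.21% under TERRA KD. For both receptor families the log2 ratio was positive in replicate 1 (1.15 and 0.71) and negative in replicate 2 (−0.16 and −0.39). Vmn1r48, a pheromone receptor gene, was covered over 82.1% and 56.5% of its length in TERRA KD and had no peak in scramble KD. The clustered protocadherins, cell adhesion genes of neurons, were at 9.05% and 3.45% under scramble KD against 10.2% and 3.21% under TERRA KD. Of these 58 genes, 31 (53.4%, with 6.84% of all genes) had a peak in all 4 lists, and 0 a pattern of one condition. The bodies of these 31 genes overlap in 2 stretches and hold only 12 different sets of covered bases, so the count takes the same peaks several times.

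Beta-defensin genes, which encode antimicrobial peptides, were at 3.32% and 1.72% under scramble KD against 7.54% and 2.48% under TERRA KD, log2 ratios of 1.18 and 0.53. Peaks lay over 4 and 5 of the 42 members under scramble KD against 5 and 4 under TERRA KD. The member Defb39 was covered over 42.2% and 16.5% of its length (5105 and 1993 bp) in TERRA KD only. In replicate 2, Defb22 and Defb35 went the other way, from 584 and 451 bp in scramble KD to 0 bp in TERRA KD. Cytochrome P450 genes stood at 3.64% and 1.86% under scramble KD against 4.56% and 2.23% under TERRA KD. Cyp2j13 was the most covered, at 29.7% and 19.3% under scramble KD against 35.4% and 20.1% under TERRA KD, and Cyp2f2 had peaks in both scramble KD lists only. Serpin A and B genes and Rhox genes had opposite directions in the replicates.

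Genes of the heterochromatin machinery themselves were covered at 2.94% and 1.07% under scramble KD against 3.39% and 1.12% under TERRA KD. Peaks in all 4 lists lay over 7 of 38 (18.4%): Zfp445, Smarcad1, Atf7ip, Pphln1, Atrx, Tasor and Smchd1. This share stands beside 6.84% of all genes and 9.91% of protein-coding genes, with gene length not adjusted for. Zfp445, an imprint-protecting zinc finger gene, was covered over 28.0% and 10.04% under scramble KD against 35.7% and 8.76% under TERRA KD. Atrx was covered over 4.104% and 0.307% under scramble KD against 3.77% and 1.34% under TERRA KD. The shelterin and telomerase genes were at 7.39% and 2.25% under scramble KD against 10.7% and 2.63% under TERRA KD. Within them Terf1, which encodes the telomere protein TRF1, was at 37.0% and 12.2% under scramble KD against 56.3% and 11.2% under TERRA KD. Pot1a was at 7.04% and 0% under scramble KD against 14.0% and 3.44% under TERRA KD. Few members of this list carried the values, since peaks lay over 3 and 4 of 18 under scramble KD against 3 and 3 under TERRA KD.

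Imprinted genes were at 1.70% and 1.29% under scramble KD against 2.33% and 0.995% under TERRA KD, with opposite directions. Peaks in all 4 lists lay over 6 of 40 (15%, with 6.84% of all genes): Peg10, Kcnq1ot1, Zim1, Kcnq1, Gnas and Snrpn. Peg10 was covered over 43.0% and 14.1% under scramble KD against 48.5% and 14.8% under TERRA KD. Kcnq1ot1, the noncoding RNA of its imprinted domain, was covered over 24.4% and 16.2% under scramble KD against 35.3% and 8.75% under TERRA KD. Germline genes, silenced in ES cells, were at 2.92% and 2.29% under scramble KD against 3.81% and 2.04% under TERRA KD. Peaks in all 4 lists lay over 8 of 39, or 20.5%, with 6.84% of all genes. Among them were Zcwpw1 (18.7% and 7.27% in scramble KD, 20.9% and 12.2% in TERRA KD) and Mov10l1 (15.4% and 11.6%, then 18.9% and 11.7%).

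Two-cell stage genes were at 2.92% and 1.81% under scramble KD against 3.99% and 6.69% under TERRA KD (log2 ratios 0.45 and 1.89, exact permutation p 0.333, the smallest possible). Members with a peak numbered 2 and 4 under scramble KD against 4 and 3 under TERRA KD. In TERRA KD 2 most of the covered length lay in 1 gene, Sp110, named here after its values were seen. Sp110 had 6221 bp covered in TERRA KD 2, 433 bp in scramble KD 2 and no peak in replicate 1. Duxf3, a copy of the Dux transcription factor gene, was covered over 100% and 31.2% under scramble KD against 100% and 56.9% under TERRA KD. Tdpoz3 had a peak over its own body in both TERRA KD lists only, at 29.5% and 38.1%, although the wide region around it was listed in all 4. Some members of this list have near-identical copies, so reads could be split between them.

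Few peaks were listed over housekeeping and ribosomal protein genes. A peak was listed over 0 of 24 housekeeping genes in the 4 libraries, and 1 of 76 ribosomal protein genes, Rpl11, had one, in TERRA KD 2. Of all genes, 73.9% had none. The bodies of these lists span only 0.303 and 0.273 Mb in total, against 1243.5 Mb for all 49595 genes. Gene length was not adjusted for. Of 24 core pluripotency genes, 19 (79.2%) had no listed peak, with 73.9% of all genes, and their bodies were covered at 0.207% and 0.0706% under scramble KD against 0.229% and 0.390% under TERRA KD. Within them Tfcp2l1, a transcription factor of naive pluripotency, had peaks in both TERRA KD lists only, over 1489 and 1024 bp. Among developmental genes, Hoxb3 (1435 and 921 bp) and Gata1 (1615 and 521 bp) showed the same pattern. Tfcp2l1, Hoxb3 and Gata1 were each the 1 gene with this pattern in lists of 24, 39 and 113 genes. Over all genes the share with it was 0.351%. Hox genes had no peak in scramble KD 1, and 36 of 39 had none in any list. Of 63 replication-dependent histone genes, with bodies of 0.0963 Mb in total, 1 (H2bc6) had a peak. Keratin-associated proteins, with 0.0450 Mb in total, had 1 gene each in scramble KD 1 (Krtap16-3) and TERRA KD 2 (Krtap24-1).

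**Figure D5:**
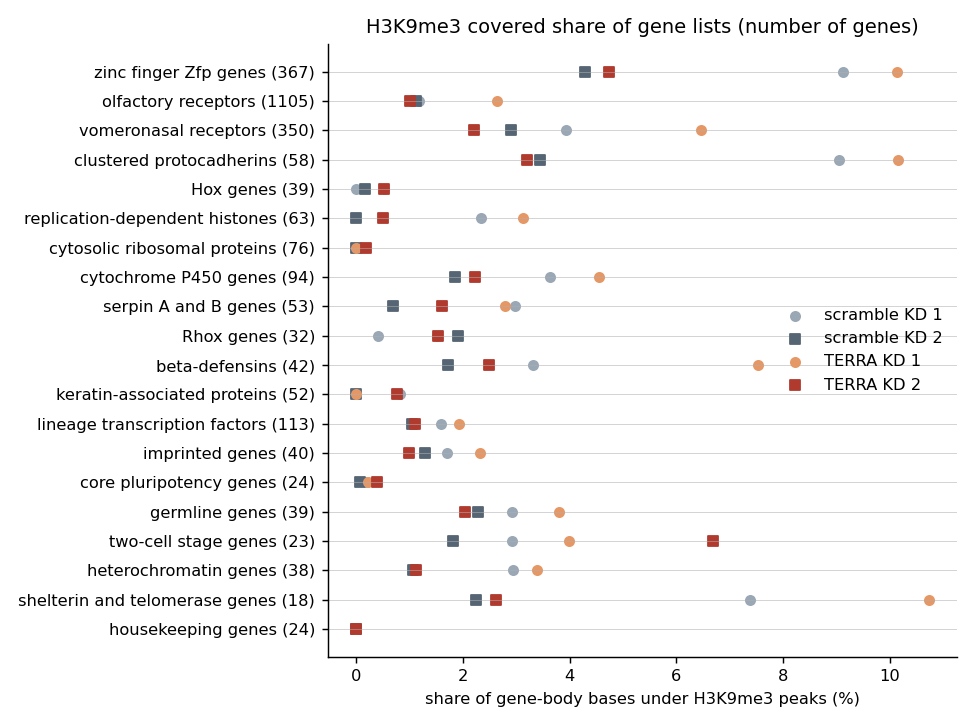
Share (%) of gene-body bases under H3K9me3 peaks for 20 gene lists (number of genes in brackets), one point per library, circles for replicate 1 and squares for replicate 2. Zfp, protocadherin and shelterin genes are the most covered lists in replicate 1, housekeeping genes sit at 0 in all 4 libraries, and the two-cell stage genes have their highest point in TERRA KD 2.

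Over Mid1, which encodes a microtubule-associated ubiquitin ligase at the border of the pseudoautosomal region of X, peaks covered 4.599% and 4.58% of the gene under scramble KD against 6.70% and 5.51% under TERRA KD. Over Gm32856 they covered 68.4% and 32.2% under scramble KD against 73.7% and 29.1% under TERRA KD. Mid1 was more covered in TERRA KD within both replicates, and Gm32856 in replicate 1 only.

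Telomeric tracts are runs of TTAGGG, the repeat that TERRA is transcribed from, inside the chromosomes or at their ends. The assembly held 362 telomeric tracts of 4 or more uninterrupted TTAGGG copies, on chromosomes 1 to 19, X and Y. A peak overlapped 24 and 208 of them under scramble KD against 125 and 223 under TERRA KD, or 6.63% and 57.5% against 34.5% and 61.6%. The TERRA KD library was higher in both replicates, by 27.9 and 4.14 percentage points (mean 16.02, exact permutation p 0.667). Both replicate 2 lists lay above both replicate 1 lists, although their peaks were narrower. Neighbouring tracts can lie under the same peak, so counts of tracts take some peaks several times. For example, 94 tracts had a peak in scramble KD 2, TERRA KD 1 and TERRA KD 2 only, and 58 merged regions of that pattern held a tract. Tracts in both TERRA KD lists only numbered 6 (1.66%) and tracts in both scramble KD lists only 0 (0%). With at least 8 copies the shares were 8.99% and 73.6% under scramble KD against 38.8% and 73.0% under TERRA KD, so that replicate 2 did not share the direction.

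Most peaks on tracts had their summit near the repeat. The summit lay within 200 bp of the tract for 79.2% and 95.7% of them under scramble KD against 95.2% and 95.5% under TERRA KD. These peaks were chosen for overlapping the tract. In replicate 2 their median width was only 549 bp under scramble KD and 630 bp under TERRA KD, so a near summit is partly fixed by the choice. Their median score was 29.9 and 105 under scramble KD against 44.9 and 151 under TERRA KD, with 40.6, 27.6, 42.8 and 30.02 over all peaks of the same libraries in that order. In replicate 2, tract peaks were therefore among the stronger ones, with 75% and 86.5% at a score of at least 50, against 8.97% and 16.6% of all peaks. Of 196 tracts with a peak in both replicate 2 lists, 174 (88.8%) had more depth-scaled tags in TERRA KD, with a median log2 ratio of 0.39. Over the 11214 shared regions in replicate 2, 71.9% had more, with a median of 0.46. The tracts thus had the larger share and the smaller median. Tract tags are those of peaks on the tract, and region tags those of joined regions with a peak in every list. The measures differ, so they give no ranking of tracts against shared regions. Of 19 tracts with a peak in both replicate 1 lists, 14 had more depth-scaled tags in TERRA KD, with a median log2 ratio of 0.21. Tracts under the same peak share its tags, so these are not counts of separate peaks.

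The share of tracts with a peak differed with their length and place. For 9 to 12 copies it was 10.8% and 85.3% under scramble KD against 47.1% and 85.3% under TERRA KD, and for 4 to 5 copies 5.31% and 35.4% under scramble KD against 26.5% and 45.1% under TERRA KD. For 13 copies or more it was lower than for 9 to 12, at 2.22% and 51.1% under scramble KD against 17.8% and 51.1% under TERRA KD. Of the 49 tracts within 1 Mb of a distal end, 2 and 5 had a peak under scramble KD against 3 and 7 under TERRA KD. The longest tract with no peak in any list, 88 copies on chromosome 7, lies 3 bp from the last sequenced base. Of the 313 tracts farther from the end, 22 and 203 had a peak under scramble KD against 122 and 216 under TERRA KD.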

How the data were processed

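The authors trimmed reads with Trim Galore 0.5.0, aligned them to GRCm38/mm10 with Bowtie2 2.3.4.1, removed duplicates with SAMtools 1.9, and called peaks in each H3K9me3 library against its own input with MACS 1.4.3 at a p of 0.01 (the processing notes name MACS2, the file headers this version; tools per the submitters' processing notes, the methods and the file headers). Replicates were not pooled, and with the default alignment a read with several equal matches is placed at one of them. Each deposited list states, peak by peak, a tag count that is not scaled to depth, a score (the negative log10 of the p on a scale where a p of 0.01 gives 20), the fold enrichment over the local background as a ratio, and a false discovery rate in percent. The last served for no filter, since the share of peaks at or below 5% ran from 21.1% to 100.0% between the lists.

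Groups came from the sample titles. The source name label reads the same for both conditions and was not used. Covered bases, widths and overlaps of at least 1 bp were computed with Python 3.11.15, numpy 2.4.6 and pandas 2.3.3. Genes, the genome sequence and repeat masking came from RefSeq GRCm38. Mean differences between conditions went through an exact permutation test, two-sided, and windows of 1 Mb with a mean of at least 10000 covered bp with limma 3.58.1 in R 4.3.3, with Benjamini-Hochberg adjustment. Counts per fixed site cannot be made from peaks called separately in each library, so no count model was used. Interval arithmetic and the window fit were tested on simulated data.

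Titles do not say whether replicates were separate cultures, so p values measure the spread between these libraries. Same-numbered libraries share the number in the titles and a sequencing lane named in the paths of the file headers. Their deviations from the condition means correlated at r 0.29 over windows. The members and gene lists were chosen with earlier results of these data known. Named items were the 10 regions per pattern with the best worse-of-2 rank of score (or, in all 4 lists, the most covered bases in the lowest library), up to 7 members of a gene list by pattern and covered share, genes of 3 lists with a peak in all 4 libraries, 5 windows per direction with the lowest p, and 2 genes that the study names. Tracts were described in addition. The sequences and places of single tracts are not reported here, apart from the run in Xkrx.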

Additional observations from a re-analysis of the deposited data

How the results depend on the processing

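The 14 results were recomputed under 157 alternatives, of which 75 did not leave out a library. Of these 75, 11 were window settings with 0 calls and 7 were block means that a balanced design fixes. Of 48 others that kept direction, 42 stayed within 1.5 times the value. The exceptions were covered share (0.66), distal ends (0.71) and the centromere side (0.64) at a score of at least 50, tracts of at least 2 copies (6.65 percentage points), and peak number with peaks joined within 1 kb (−0.07) or 5 kb (−0.06). Keeping only peaks with a score of at least 50 turned the log2 ratio of peak number from −0.04 to 0.46, and changed regions in TERRA KD only to 524, regions in scramble KD only to 140 and genes in scramble KD only to 41. With peaks joined within 5 kb, regions in TERRA KD only numbered 1036. Genes with a peak near the start site numbered 102 and 41, and genes covered over at least 50% of their body 20 and 13. Ranking the same number of peaks leaves no peak number to compare. The tract alternative with 1 kb added on each side (16.02 percentage points) and 2 window settings combined with the block were chosen after seeing the data.

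With the replicate block, which cannot change a mean in a balanced design, the mean log2 ratio was −0.04 for peak number, 0.24 for covered share, 0.22 for width, 0.33 for distal ends and 0.30 for the centromere side, and the differences were 4.19 and 16.022 percentage points for wide peaks and tracts. The sign-flip p was 0.5 or 1 (smallest possible 0.5), and no call changed. The counts of regions, genes, chromosomes and lists come from no test, so the block gives them no value.

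Leaving out a replicate number or a library moved most results, and the cause was not tested. Without scramble KD replicate 2 or without TERRA KD replicate 1, the conditions hold unequal numbers of each replicate, and the direction turned for peak number, covered share, width, wide peaks and both chromosome ends. For wide peaks it also turned without replicate 1. The ranges were −0.82 to 0.74 for peak number, −0.32 to 0.80 for covered share, −1.08 to 1.52 for width, −5.89 to 14.3 percentage points for wide peaks, −0.25 to 0.91 for distal ends, −0.29 to 0.89 for the centromere side and −9.39 to 41.4 percentage points for tracts, the last negative without scramble KD replicate 1. Counts ran from 0 to 21 for chromosomes, 6 to 18 for gene lists, 3497 to 30981 and 2075 to 35666 for regions in TERRA KD only and scramble KD only, and 523 to 3166 and 481 to 3024 for genes. Regions in TERRA KD only were then fewer than those in scramble KD only without replicate 1 (30981 against 35666), without scramble KD replicate 1 (4206 against 32439) and without scramble KD replicate 2 (3497 against 3751). Genes in TERRA KD only were fewer without replicate 2 (1185 against 1351), without scramble KD replicate 1 (654 against 2513) and without TERRA KD replicate 2 (523 against 615). Windows called stayed at 0 in the alternatives run, with 0 to 421 at an unadjusted p under 0.05. Where no peak is listed, enrichment fell short of the caller at that depth, which does not show that the mark was absent.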

Other observations

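ATRX peaks overlapped the H3K9me3 regions listed in all 4 libraries more often than regions in fewer lists, which are also narrower. They overlapped 10.6% and 13.2% of these shared regions in scramble KD ATRX replicates 1 and 2, and 49.97% and 20.4% under TERRA KD. Over regions in TERRA KD only the shares were 1.05% and 3.403% under scramble KD against 12.3% and 4.70% under TERRA KD, and over regions in scramble KD only 2.45% and 2.68% under scramble KD against 9.36% and 5.24% under TERRA KD. The TERRA KD ATRX lists hold more peaks, 41384 and 21718 against 7321 and 13652, so the shares move with the size of the ATRX list, and its part was not tested.

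Open chromatin was listed inside H3K9me3 regions as well. ATAC peaks overlapped 19.2% and 24.9% of the shared regions under scramble KD against 22.6% and 30.5% under TERRA KD. Of the 362 telomeric tracts, 181 and 196 had an ATAC peak under scramble KD against 214 and 228 under TERRA KD. ATRX peaks overlapped 202 and 179 tracts under scramble KD against 275 and 193 under TERRA KD. H3K9me3 peaks overlapped 24 and 208 under scramble KD against 125 and 223 under TERRA KD. More tracts thus had ATRX than H3K9me3 in replicate 1 of both conditions, and fewer in replicate 2 of both.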
